A study of Mus musculus with 3 samples.

Results

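The widest CTCFL peaks of induced mouse embryonic stem (ES) cells are described here. They were selected on their width alone: a peak was kept when its interval spanned 800 bp or more and its midpoint lay above position 3100000 of its chromosome, which leaves out the repeat-rich proximal ends. This gave 313 wide peaks of the 7436 CTCFL peaks in the list, or 4.21%, and these held 8.61% of all bases in peaks. They were compared with the remaining 7123 peaks, among which were 14 peaks of 800 bp or more at the proximal ends. The ES cells carried the transactivator rtTA in the ROSA26 locus and, as 1 selected clone, a Tet-responsive transgene for mouse CTCFL fused to V5 and GFP. Transgene expression was switched on by 3 days of doxycycline, GFP-positive cells were sorted, and chromatin was precipitated with the V5 antibody. ES cells of this kind without doxycycline, which were not sorted, gave the control library for the same antibody, and a further library was made from ES cells with an antibody against CTCF. The peaks are therefore those of a tagged CTCFL protein expressed from a transgene, in cells that also contain CTCF. There was 1 library per condition and only the peak list of the induced cells was used, so replicate spread is unknown and no peak has a read number.

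CTCFL, also called BORIS, is the testis-specific paralog of CTCF. Both proteins bind DNA with a nearly identical array of zinc fingers and recognize related, GC-rich sites. CTCF is a ubiquitous organizer of chromatin loops, whereas CTCFL is normally made in male germ cells before and at the onset of meiosis. In a ChIP-sequencing list a peak interval spans the stretch of DNA over which reads were enriched.

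Sites were searched with a CTCF-type consensus of 14 positions, CCNNNAGGNGGCGC, in which 10 positions are fixed. A match could lie on either strand with up to 1 mismatch at the fixed positions, and overlapping matches were counted once. Stretches of 4 wide peaks are printed on the plus strand of mm9, from 5′ to 3′, with every match in capitals. They show the 2 members with the most matches, the widest peak without repeated sequence, and a promoter peak with a single perfect match. The Stra8 stretch holds 7 of the 10 matches of its peak and the Mon1a stretch 3 of 5. The Stra8 stretch lies in an intron at chr6:34872039-34872329. The Mon1a stretch is coding sequence at chr9:107803589-107803862. The Klf5 stretch runs from coding exon into intron at chr14:99698323-99698596. The Nae1 stretch lies just upstream of the gene at chr8:107058551-107058584.
Stra8: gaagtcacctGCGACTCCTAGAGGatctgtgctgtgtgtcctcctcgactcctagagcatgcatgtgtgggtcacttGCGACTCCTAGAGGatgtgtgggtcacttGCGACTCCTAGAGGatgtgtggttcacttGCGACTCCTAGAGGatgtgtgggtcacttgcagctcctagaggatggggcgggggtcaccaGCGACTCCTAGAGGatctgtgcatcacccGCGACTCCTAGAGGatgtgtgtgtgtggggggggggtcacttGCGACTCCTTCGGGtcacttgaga
Mon1a: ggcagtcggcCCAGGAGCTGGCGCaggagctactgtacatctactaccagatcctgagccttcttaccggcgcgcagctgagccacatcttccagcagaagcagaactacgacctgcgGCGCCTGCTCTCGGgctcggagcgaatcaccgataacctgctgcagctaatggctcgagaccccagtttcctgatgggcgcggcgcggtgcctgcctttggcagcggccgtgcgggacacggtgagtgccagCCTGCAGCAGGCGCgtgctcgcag
Klf5: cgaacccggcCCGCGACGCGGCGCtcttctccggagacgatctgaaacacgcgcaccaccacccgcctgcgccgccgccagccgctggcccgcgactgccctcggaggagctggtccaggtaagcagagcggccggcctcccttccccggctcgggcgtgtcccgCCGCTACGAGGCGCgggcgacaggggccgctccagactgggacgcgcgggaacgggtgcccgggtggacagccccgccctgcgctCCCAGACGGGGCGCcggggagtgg
Nae1: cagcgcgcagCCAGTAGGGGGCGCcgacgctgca

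The matches themselves are compared on their own strand, each in the direction of the consensus. Here capitals mark the fixed positions that equal the consensus, and position 1 is its first base. All 10 matches of the Stra8 peak lie on the minus strand and all carry the substitution G11T. The 3 matches of the Klf5 peak lie on the plus strand and carry G7C. Of the 5 matches in Mon1a, the 3 in the printed stretch carry G8C and the others do not. At Stra8 and Klf5 the mismatched position was thus the same in every mismatched copy.
Stra8 matches 1, 2, 3, 4, 5, 6, 7 and 10: CCtctAGGaGtCGC
Stra8 match 8: CCcgaAGGaGtCGC
Stra8 match 9: CCtctAGGtGtCGC
Mon1a match 1: CCaggAGctGGCGC
Mon1a match 2: CCgagAGcaGGCGC
Mon1a match 3: CCtgcAGcaGGCGC
Mon1a match 4: CCagctGGtGGCGC
Mon1a match 5: CCtgcgGGaGGCGC
Klf5 match 1: CCgcgAcGcGGCGC
Klf5 match 2: CCgctAcGaGGCGC
Klf5 match 3: CCcagAcGgGGCGC
Nae1 match 1: CCagtAGGgGGCGC

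Over all wide peaks 291 matches were found, of which 51 had no mismatch (17.5%). The mismatch lay most often at position 14, in 45 matches (15.5%), and at position 6, in 41 matches (14.1%). Positions 7, 10 and 13 differed from the consensus least often, in 6, 10 and 10 matches. The most frequent single substitutions were C14G and G8A, with 23 matches each. Copies within a peak were counted singly, so these counts are not independent. The 10 matches of Stra8 are among the 16 with G11T. The 3 matches of Klf5 are among the 6 that differ at position 7.

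Widths of the 313 members ran from 800 to 2893 bp, with a median of 907 bp and quartiles of 838 and 1031 bp. In comparison, the remaining peaks had a median width of 445 bp. There were 91 members of 1000 bp or more, 13 of 1500 bp or more and 5 of 2000 bp or more. These widths chose the members and are given as a description. The threshold fell in a continuous distribution. Just inside it lay 4 peaks of 800 bp, at 4930523C07Rik, Kif19a, Cttnbp2nl and Me3, and a peak of 801 bp at Zfp692. Just outside it lay 5 peaks of 799 bp, among them those near Wrnip1, Zscan10, Zc3h12a and 4732415M23Rik. Within 50 bp of the threshold 93 peaks were inside and 122 were outside.

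The 10 widest members fell into 2 kinds, promoter peaks in unique sequence and peaks in repeated sequence far from a promoter. To score repeats, every window of 36 bases, the read length, was looked up in the whole genome. In 5 of the 10 the midpoint lay in the promoter interval, defined as 2 kb upstream to 1 kb downstream of the transcription start site (TSS) of a protein-coding transcript, and all their windows were unique. The widest of these was at Klf5, a zinc finger transcription factor gene active in ES cells (ENSMUSG00000005148.7). It spanned 2498 bp (chr14:99697057-99699554), had its midpoint 396 bp downstream of a TSS, a GC content of 75.8% in the central 500 bp and 3 consensus matches. Next was Tbc1d4, which encodes a Rab GTPase-activating protein of insulin-stimulated glucose transport, with 2401 bp, 2 matches and a midpoint 7 bp from a TSS. Hjurp, the chaperone that loads the centromeric histone CENP-A, had a peak of 1958 bp with 1 match. At Arhgap26 the peak measured 1759 bp, and at Sco2, needed for assembly of cytochrome c oxidase, it measured 1714 bp. Both held 2 matches.

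The other 5 of the 10 widest members had no consensus match. The widest peak of all (2893 bp, chr4:79648300-79651192) was intergenic, had a GC content of 33.2% and 88.2% unique windows. A peak of 2783 bp in an intron of Sp110 had 18.9% unique windows, and a peak of 2171 bp in an intron of Myo3a had 48.3%. Intergenic peaks of 1727 and 1708 bp, for which the nearest TSSs were those of Gdi2 and Ly6c2, had 81.2% and 65.9%. Reads in such sequence cannot be placed as surely as in the promoter peaks, and the part of this in the widths was not tested.

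To test what else set wide peaks apart, 10 shares were compared with the remaining peaks by Fisher's exact test, two-sided, with Benjamini-Hochberg adjustment over the 10. Differences are in percentage points with 95% Newcombe intervals. The tests compare peaks of this 1 list, not replicates, neighboring peaks are not independent, and the intervals cover counting error only.

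**Figure D1:**
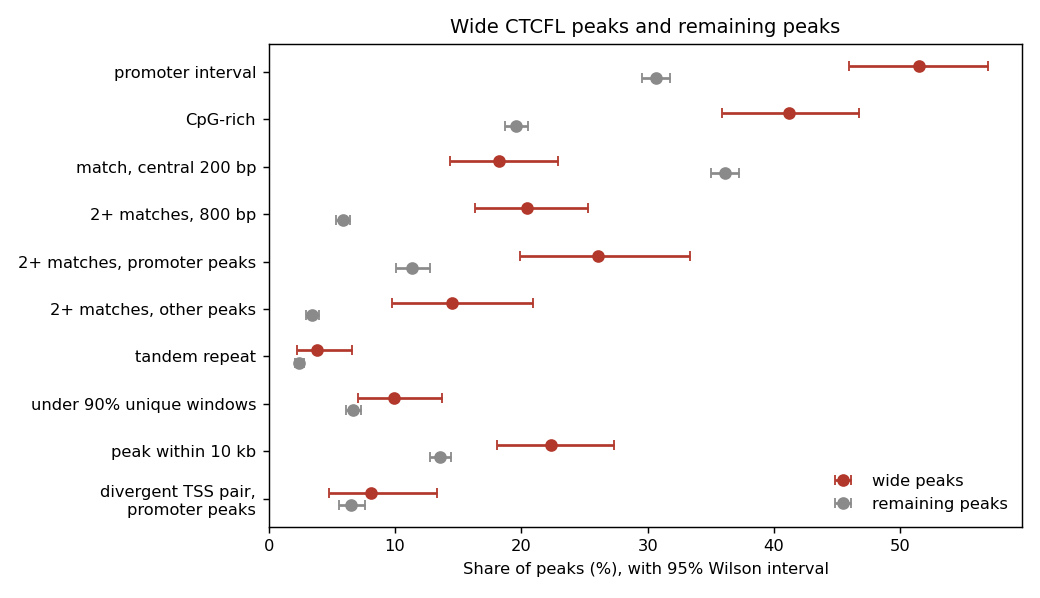
Share of the 313 wide peaks (red) and of the 7123 remaining peaks (gray) with each property, with 95% Wilson intervals on a linear axis in percent; the tests of divergent promoters and of 2 or more matches by place use only peaks inside or outside promoters. Wide peaks lie to the right for promoters (51.4% against 30.6%), CpG-rich sequence and 2 or more matches, and to the left for a match in the central 200 bp (18.2% against 36.1%). That central window covers less of a wide peak than of a narrow one.

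Wide peaks were promoter peaks more often than the rest. The midpoint of 161 members (51.4%) lay in the promoter interval, compared with 2183 remaining peaks (30.6%), a difference of 20.8 points (15.2 to 26.4, exact test, adjusted p = 3.15e-13). Of the other members 67 were intergenic, 44 lay in introns, 25 at transcript ends and 16 in exons. Introns held 14.1% of the wide peaks and 26.7% of the remaining peaks, and intergenic sequence 21.4% and 34.6%. Within the promoter interval the members sat close to the start site, and so did most remaining promoter peaks. The midpoints of these members had a median position 29 bp downstream of the nearest TSS with quartiles of −217 and 213 bp. Of the promoter members 127 (78.9%) lay within 500 bp of a TSS, compared with 73.5% of the remaining promoter peaks. This difference was not tested. Among the members upstream midpoints numbered 74 and downstream ones 87.

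CpG-rich sequence was also more common. It was defined as a GC content of 55% or more with a CpG observed/expected ratio of 0.65 or more in the central 500 bp, a window that does not grow with width. This applied to 129 wide peaks (41.2%) and 1396 remaining peaks (19.6%), a difference of 21.6 points (16.2 to 27.2, exact test, adjusted p = 1.45e-16). The median GC content was 59.4% in the wide peaks and 52% in the rest, and the median CpG ratio 0.62 and 0.34. The difference was smaller among promoter peaks alone. When only promoter peaks were compared, a choice made after seeing the data, 60.2% of the wide and 53.4% of the remaining peaks were CpG-rich, and the difference of 6.84 points did not pass the test (exact test, adjusted p = 0.13). Members of different genomic classes differed in composition. Among promoter members 97 of 161 were CpG-rich, the median GC content was 63.2% and 2.48% had under 90% unique windows. Members at transcript ends and in exons were close to these, with median GC contents of 59.6% and 60.6%, 44% and 50% CpG-rich and 4% and 6.25% under 90% unique windows. Intergenic members had a median GC content of 50.2%, 14.9% were CpG-rich and 26.9% had under 90% unique windows, and for those in introns these values were 52.9%, 6.82% and 18.2%.

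Several consensus matches in 1 peak were more frequent in wide peaks. In the 800 bp around the midpoint, a window of the same size for every peak, 64 members (20.4%) and 418 remaining peaks (5.87%) held 2 or more matches, a difference of 14.6 points (10.4 to 19.4, exact test, adjusted p = 1.45e-16). The size of the difference depended on the window and the model. It was 5.42 points in 400 bp (9.27% against 3.85%). With a position weight matrix built from the remaining peaks it was 29.1 points (55.3% against 26.2%), and both passed the test. The matrix threshold was set to 5% of flanking windows of 200 bp. This is not the background of the 800-bp window, where matrix sites in flanking sequence were not counted. At least 3 matches were present in 21 members (6.71%) and 47 remaining peaks (0.66%). In windows of the same size 2 kb to either side of the members, 2 or more matches were present in 0 of 626, which allows a share of up to 0.479%. Of the 800-bp windows around the first TSS of every protein-coding gene, 17.3% held a match and 2.58% held 2 or more. The difference was present both inside and outside promoters. Among promoter peaks 42 of 161 wide (26.1%) and 11.4% of the remaining peaks held 2 or more matches (exact test, adjusted p = 1.20e-06). Outside promoters the shares were 22 of 152 (14.5%) and 3.44% (exact test, adjusted p = 7.25e-08). CpG-rich members away from promoters had the highest share, 12 of 32 (37.5%, Wilson interval 22.9% to 54.7%). This interval overlaps that of CpG-rich promoter members (26.8%, 19% to 36.4%). Among the remaining peaks the CpG-rich ones away from promoters also had the highest share, 45 of 230 (19.6%). At no mismatch only 2 members held 2 or more matches (0.639%) compared with 0.253% of the remaining peaks, and this did not pass the test (exact test, adjusted p = 0.23).

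**Figure D2:**
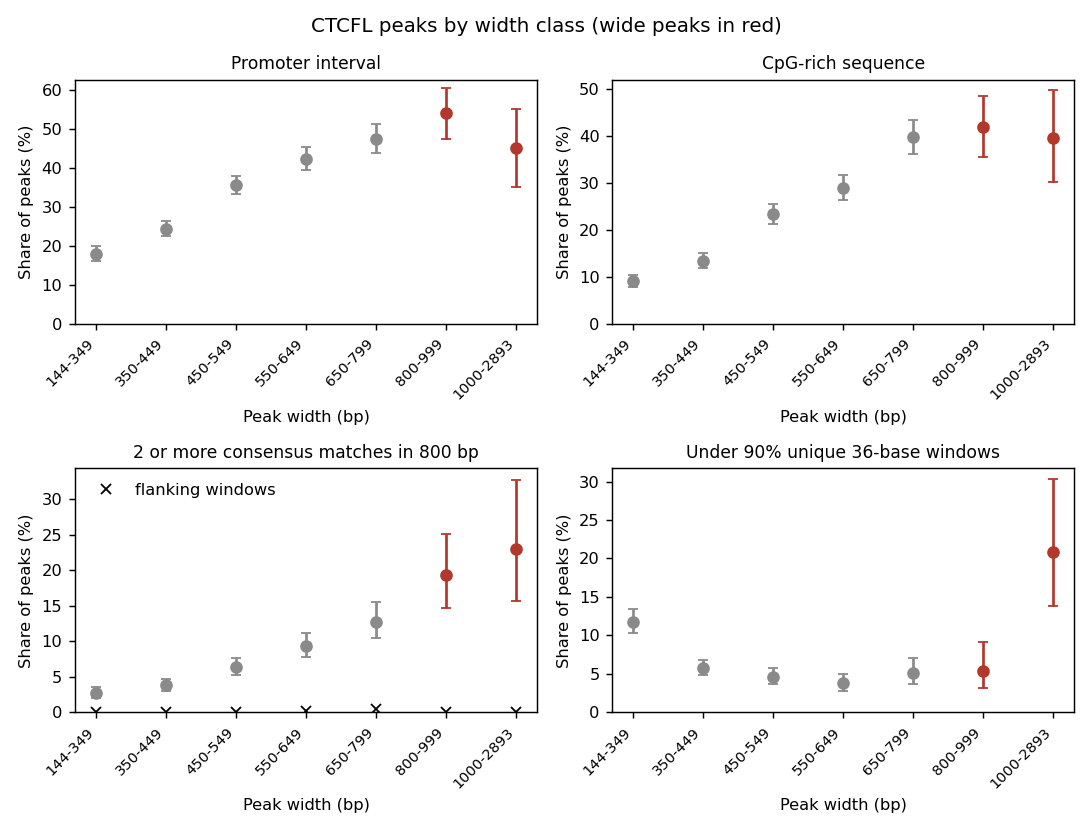
Share of peaks (%) in 7 classes of peak width (bp) that lie in the promoter interval, are CpG-rich, hold 2 or more matches in 800 bp, or have under 90% unique 36-base windows; red classes are wide peaks, bars are 95% Wilson intervals, and crosses give 2 or more matches in flanking windows. The share with 2 or more matches climbs from 2.67% to 23.1%, while repeated sequence is highest at the 2 ends, 11.8% and 20.9%.

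The share with several matches climbed through the width classes, and the largest rise was at 800 bp. It was 2.67% in peaks under 350 bp, 12.8% (10.5 to 15.5) in peaks of 650 to 799 bp, 19.4% (14.7 to 25.1) in those of 800 to 999 bp and 23.1% (15.6 to 32.7) in those of 1000 bp or more. Against peaks of 650 to 799 bp alone, a comparison added after seeing the data, the difference was 7.67 points (exact test, adjusted p = 0.0033). Under the weight matrix, the share with 2 or more sites was 43% at 650 to 799 bp, 58.1% at 800 to 999 bp and 48.4% at 1000 bp or more. Promoter and CpG-rich shares levelled off. They were 47.6% and 39.6% at 650 to 799 bp, 54.1% and 41.9% at 800 to 999 bp, and 45.1% and 39.6% at 1000 bp or more, with overlapping intervals. Seen from the other side, 3.13% of peaks with no match in 800 bp were wide, 4.22% of those with 1, 10.4% of those with 2 and 30.9% of those with 3 or more, 21 of 68.

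The position of matches changed at about the width that defined the members. A match in the central 200 bp was present in only 57 members (18.2%), compared with 2570 remaining peaks (36.1%), a difference of −17.9 points (−21.9 to −13.1, exact test, adjusted p = 3.05e-11). Flanking windows of that size held a match in 0.958% for members and 0.913% for the rest. The midpoint comes from the interval that chose the members, and 200 bp covers less of a wide peak than of a narrow one. This difference can therefore follow in part from the rule. By width the central share was 30% under 350 bp, 46.1% at 650 to 799 bp and 19.8% at 800 to 999 bp. The direction depended on the window. In the central 400 bp the shares were 43.8% and 42.5%, and in 800 bp, a window added after seeing the data, 59.1% and 44.4% (exact test, adjusted p = 7.75e-07). In 800 bp wide peaks thus held a match more often than all remaining peaks together, but farther from the midpoint. Against the next narrower class this was not so clear. Inside the peak interval a match was present in 58.6% (54.9 to 62.2) of peaks of 650 to 799 bp. At 800 to 999 bp the share was 62.2% (55.6 to 68.3) and at 1000 bp or more 53.8% (43.7 to 63.7). In the 120 members with exactly 1 match inside the peak, it lay a median of 152.5 bp from the midpoint, and 39 of the 120 had it within 100 bp. In remaining peaks with 1 match the median distance was 43.5 bp. Narrow peaks leave less room, so distances were also scaled. Over all matches in peaks, the median was 34.8% of the way from midpoint to edge in wide peaks and 20.2% in the remaining peaks. These values include peaks with several matches, which cannot all be central and which were more frequent among wide peaks. Scaled distances for peaks with 1 match alone were not computed.

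**Figure D3:**
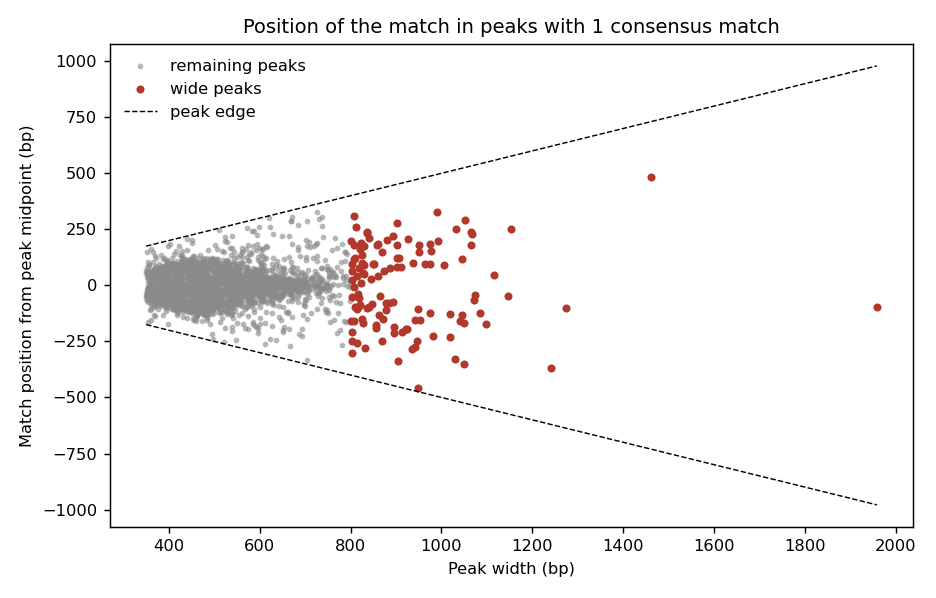
Position of the match from the peak midpoint (bp) against peak width (bp) in peaks of 350 bp or more with exactly 1 consensus match; red points are the 120 wide peaks, gray points remaining peaks, and dashed lines mark the peak edges. Gray points gather closest to 0 at 550 to 799 bp, with some over 300 bp away, and red points spread to both sides, with a median distance of 152.5 bp.

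The distance to the midpoint was smallest just below the width threshold. Its median was 56.25 bp in peaks of 350 to 449 bp, 65 bp at 450 to 549 bp, 38.5 bp at 550 to 649 bp and 31.5 bp at 650 to 799 bp, and then 150 bp at 800 to 999 bp and 169.5 bp at 1000 bp or more. The median distance to the nearer edge was 142, 186, 258 and 314 bp in these narrower classes, then 299 bp at 800 to 999 bp and 362 bp at 1000 bp or more. In wide peaks with 1 match, one edge lay a median of 305 bp from it and the other 606.5 bp. Both distances add up to the width that chose the members, so the longer side follows in part from the rule and is a description. A summit position was not part of the list, so whether read density follows the match was not tested.

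The members differed in how many sites they held. Inside the peak interval 126 members had no match, 120 had 1, 41 had 2, 22 had 3, 2 had 4, 1 had 5 and 1 had 10. Among the 126 without a match 35.7% were promoter peaks, compared with 60% of those with 1, 65.9% of those with 2 and 68.2% of those with 3. Under the matrix 68 of the 126 held a site in 800 bp and 58 held none. How often flanking windows of 800 bp hold a matrix site was not counted. The median width was 927 bp without a match, 882 bp at 1 match, 920 bp at 2 and 961 bp at 3, so within the members width did not follow the number of matches in 1 direction.

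**Figure D4:**
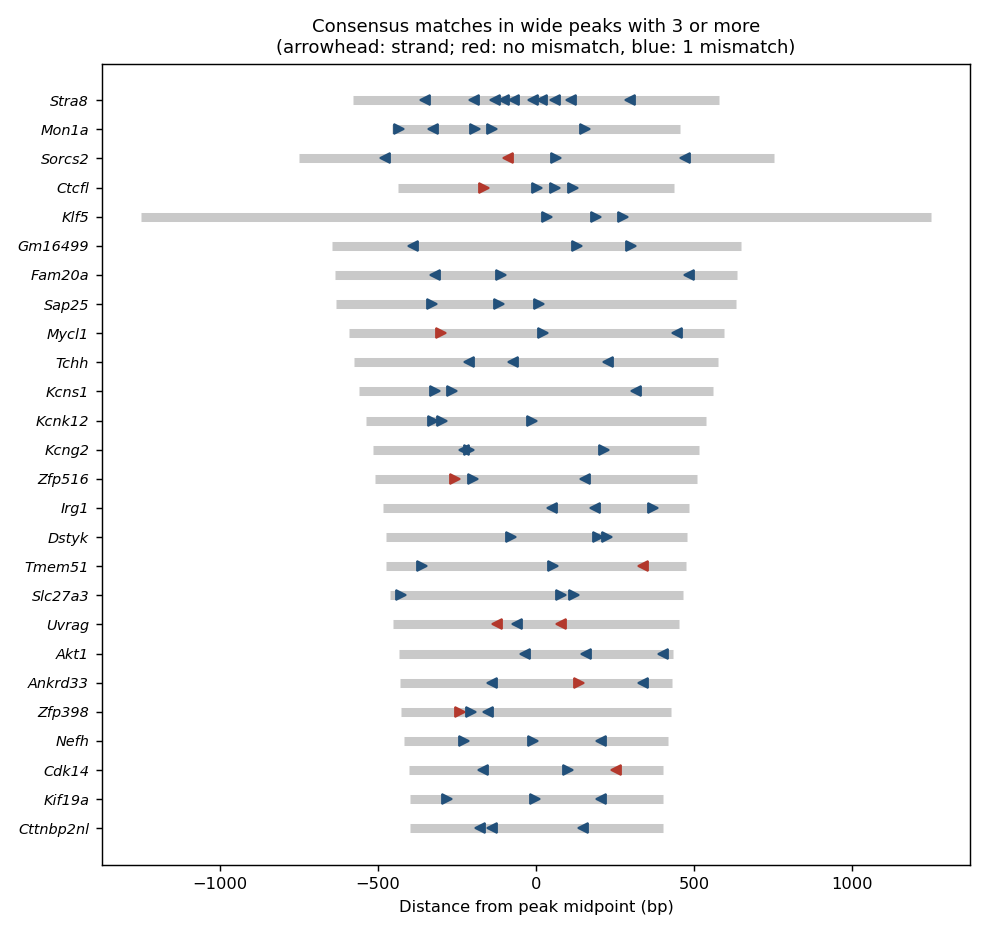
Consensus matches in the 26 wide peaks with 3 or more, each row 1 peak drawn to scale (gray bar) around its midpoint, named for the nearest TSS or, for Mon1a, the gene that holds it; arrowheads give the strand, red marks no mismatch and blue 1 mismatch. The 10 Stra8 matches all point one way and sit within 350.5 bp of the midpoint, while most other peaks have 3 matches spread over their length.

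Stra8, whose product germ cells need to enter meiosis, had 10 matches, compared with at most 5 in any other member. The peak (ENSMUSG00000029848.4) spans 1159 bp (chr6:34871673-34872831). Its neighboring matches start 29 to 184 bp apart, and 29 bp was the most frequent distance but not the only one. At a shift of 29 bp a 100-base run was 90% identical to itself. Mon1a, a gene of vesicle trafficking, followed with 5 matches in a coding exon, and this member (909 bp) lies 5181 bp upstream of the TSS of Mst1r. Ctcfl and Sorcs2, a receptor gene of the VPS10 family, had 4 each. The Ctcfl peak (ENSMUSG00000070495.4, 873 bp) lies over the start of the endogenous gene, with its midpoint 124 bp upstream of the TSS. Then 22 members had 3 matches, too many to rank further. They included promoter peaks of Klf5, Mycl1 (a MYC family transcription factor), Akt1 (a growth factor signaling kinase), Cdk14, Dstyk, Nefh (the heavy neurofilament protein), Fam20a, Kif19a and Zfp398. Of the 26 members with 3 or more matches, 9 had a perfect one, and of all 313 members 50 did (16%). A peak with more matches has more chances of a perfect one, so these shares are not alike.

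Matches in wide peaks were spaced more widely than in the others. In the 67 members with 2 or more matches in the interval, neighboring matches started a median of 210.5 bp apart (quartiles 72.25 and 365.75 bp), and 28.8% of the 104 pairs were under 100 bp apart. In the 332 remaining peaks of this kind the median was 96.5 bp and 50.5% of 370 pairs were under 100 bp apart. Since a narrow interval cannot hold distant matches, these spacings follow in part from the width that chose the members and were not tested. The strands of neighbors agreed in 68 of 104 pairs (65.4%, 55.8% to 73.8%), and in 59 of 95 (62.1%, 52.1% to 71.2%) without Stra8. In the remaining peaks they agreed in 59.7% (54.7% to 64.6%). Convergent pairs, plus before minus, numbered 25 in the wide peaks and divergent pairs 11. Among the 370 pairs of the remaining peaks these numbers were 87 and 62, so convergent pairs were the more frequent in both groups.

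Repeated sequence marked a small group of members. In the central 400 bp, 31 wide peaks (9.9%) and 477 remaining peaks (6.7%) had under 90% unique windows, a difference of 3.21 points (0.305 to 7.06, exact test, adjusted p = 0.048). The excess was in peaks of 1000 bp or more, with 20.9% (13.8 to 30.3), while peaks of 800 to 999 bp had 5.41% (3.12 to 9.21). Over the whole interval 228 members (72.8%) were unique throughout and 32 were under 90%. These 32 had a median width of 1068.5 bp, compared with 901 bp for the other 281, and made up 7 of the 20 widest. Only 4 of the 32 held a consensus match (12.5%), compared with 183 of 281 (65.1%), and 4 lay in promoters. The 14 wide peaks at the proximal ends of chromosomes resembled this group. They spanned 863 to 2702 bp, had 10.1% to 86.5% unique windows and held 0 matches, and 8 were on chromosome 9. Tandem repeats were present in 12 members (3.83%) and 2.4% of the rest, which did not pass the test (difference 1.43 points, −0.238 to 4.2, exact test, adjusted p = 0.15). Stra8 and a peak near Uvrag were the 2 with several matches.

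Wide peaks had another CTCFL peak nearby more often. Within 10 kb of the midpoint another peak was present for 70 members (22.4%) and 967 remaining peaks (13.6%), a difference of 8.79 points (4.45 to 13.8, exact test, adjusted p = 5.46e-05). For peaks of 1000 bp or more the share was 16.5%, compared with 13.9% of all narrower peaks, which did not pass the test (exact test, adjusted p = 0.45). In 6 cases 2 wide peaks lay within 10 kb of each other. At Klf5 the promoter peak was followed by a second wide peak of 1016 bp over an exon, with its midpoint 2733 bp away and no match. At Ptma, the prothymosin alpha gene, 2 wide peaks lay 2666 bp apart. For divergent promoters no difference passed the test. Among promoter peaks 13 of 161 wide (8.07%) and 142 of 2183 remaining (6.5%) lay between diverging start sites within 1 kb, a difference of 1.57 points (−1.91 to 6.91, exact test, adjusted p = 0.41).

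Chromosomes 1, 8 and 14 held more wide peaks than their share of the list. They had 47 of 564, 41 of 465 and 26 of 325 peaks, or 8.33% (6.32 to 10.9), 8.82% (6.57 to 11.7) and 8% (5.52 to 11.5). Together they held 114 of the 313 members (36.4%) and 18.2% of all peaks. On the other autosomes the share ran from 2.1% to 4.09%, and on X it was 1.71%, 2 of 117. The excess was present among promoter peaks, of which 14.3%, 16.3% and 10.5% were wide on these 3, and among the other peaks, with 6.1%, 5.95% and 7.23%. The remaining peaks of chromosomes 1 and 8, which the width rule did not choose, had median widths of 473 and 485.5 bp, and those of the other autosomes 414 to 464 bp, with 438 bp on chromosome 14. On chromosome 14 all members of 1000 bp or more lay between positions 94512471 and 112074720, those at Klf5 and Tbc1d4 among them. This stretch was noticed after the values were seen. The chromosomes were also picked after their counts were seen, so no test was made, and what moved width with chromosome was not tested. Without these 3 the promoter, CpG-rich, multiple-match and neighbor differences all still passed the test.

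**Figure D5:**
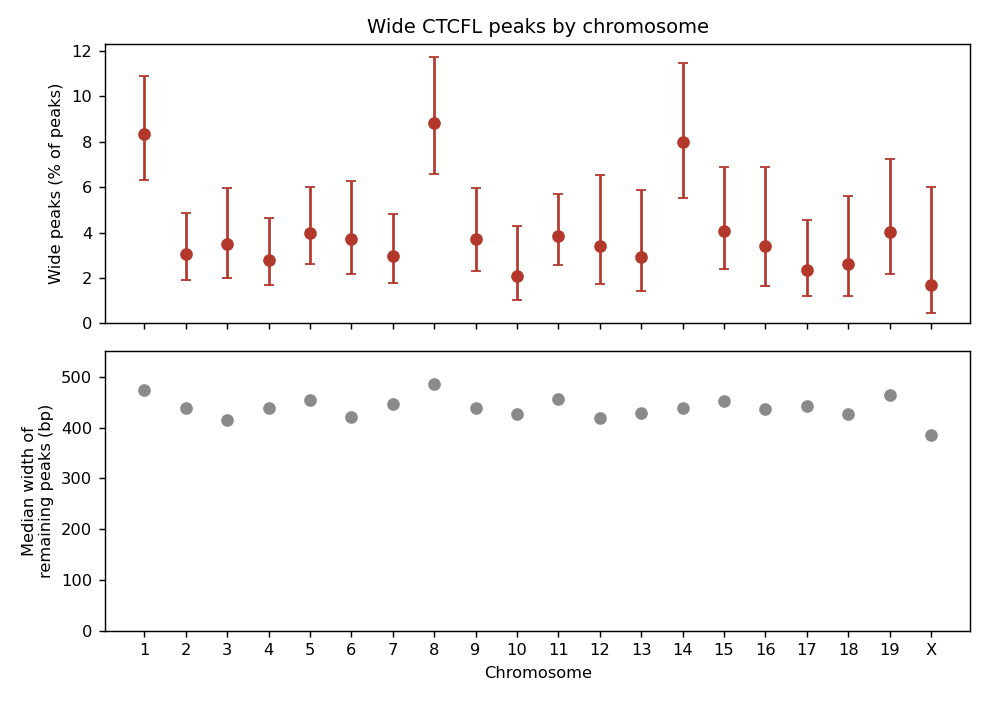
Wide peaks as a share of each chromosome's peaks (%, with 95% Wilson intervals, top) and the median width of its remaining peaks (bp, bottom). Chromosomes 1, 8 and 14 stand at 8.33%, 8.82% and 8%, and all others at 4.09% or less; chromosome Y, with 2 peaks, is left out.

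Wide peaks lay in the promoter interval of 177 of 22232 protein-coding genes, which is 0.796%, and any peak of the list in that of 2505, which is 11.3%. Of 8 gene lists, 3 had a gene with a wide promoter peak. Among 23 pluripotency genes this was Klf5 (4.35%), among 18 CTCF and cohesin genes Ctcfl (5.56%), and among 51 DNA replication and cell cycle genes Ccna2, which encodes cyclin A2 of S phase and mitosis (1.96%). The Ccna2 peak spans 849 bp with 2 matches and its midpoint lies 63 bp downstream of a TSS. No wide peak lay in the promoter interval of 60 meiosis and germ cell genes, although 11 of them had some peak there. Stra8 was the only one with a wide peak inside the gene. Its midpoint lay 1238 bp downstream of the TSS, just past the 1 kb limit of the interval, and the study places this site in the Stra8 promoter. These counts cover the listed genes only: the germ cell genes Boll (876 bp) and Exd1 (840 bp), noticed after the values were seen, have wide promoter peaks with 2 matches each and are on no list. The counts were likewise 0 for 27 haploid spermatid genes, 36 imprinted genes, 39 Hox genes and 24 clustered protocadherin genes, of which 4, 9, 1 and 2 had a narrower peak. With 0.796% as background, single genes per list are counts too small to set a list apart.

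Of the sites named by the study, Stra8, Irg1 and Nae1 had wide peaks. Others that it names include Prss50, Gal3st1, Vps18, Twf2, Tctn2, Rapgef1, Uqcrc1 and Bag5. The 3 with wide peaks are all among the 10 CTCFL sites that the study ranked highest by read number. Over the whole list 4.21% of peaks were wide, and the named sites were not tested against that share. Nae1, a subunit of the enzyme that activates NEDD8, shares its peak (823 bp, chr8:107058144-107058966) with the promoter interval of the carbonic anhydrase gene Car7. Its single perfect match lies 12.5 bp from the midpoint, and the midpoint 18 bp upstream of the Nae1 TSS. Irg1, whose product makes itaconate in activated macrophages, had a wide peak of 801 bp in an intron with no match. A further one of 969 bp with 3 matches lay 65290 bp upstream. The wide peaks at these sites thus ranged from 10 clustered matches to none.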

How the data were processed

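CTCFL-V5 (3 days of doxycycline), the control without doxycycline and CTCF were each profiled in mouse ES cells by ChIP-sequencing, with 1 library per condition. The deposited file holds an interval (start and end) for every CTCFL peak after induction on mm9, the build named in the labels, with no score, fold, height or read number, so depth is unknown. According to the methods of the authors, chromatin was sonicated to fragments of up to 800 bp, libraries were size selected on gel around 200 bp, 36-bp reads were mapped with ELAND, and for comparisons with BOWTIE to mm9, with unique reads and MACS peaks. Which of these made the list is not given in the sources used here. The list has more intervals than the CTCFL sites counted in the study, and how the latter were derived from it is not given in the sources used here. Fragment size and mapping in repeats can affect a width, which was not tested, and the midpoint stands in for a summit.

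Starts were converted from 0-based to 1-based. Sequence came from the NCBIM37 genome (mm9) and genes from GENCODE vM1 on that assembly. Windows were fixed around the midpoint: 200 and 800 bp for the consensus, 500 bp for GC and CpG, and 400 bp for uniqueness. Tandem repeats were shifts of 10 to 200 bp at which 100 bases were 85% identical. Features were computed with Python 3.11.15, numpy 2.4.6, pandas 2.3.3, pysam 0.24.0 and numba 0.67.0, and tests with scipy 1.17.1 (Fisher's exact test, two-sided, threshold 0.05 after Benjamini-Hochberg adjustment over 10 shares). The search, the repeat score, the uniqueness count and the test were checked on simulated sequence. The members and gene lists were chosen with earlier results of these data known. The text names the 10 widest members, those at genes of the lists or at sites that the study named, the 10 with most matches, and the 5 peaks on either side of the threshold. Ties at 3 matches exceeded that number, and those named were picked after their values were seen. So were the members near Uvrag and at Ptma, Boll and Exd1. Widths and counts by chromosome have no test. Alternatives changed the width threshold, the comparison peaks, the windows, the motif model and the definitions. Some items are not reported here.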

Additional observations from a re-analysis of the deposited data

How the results depend on the processing

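Of 66 alternatives to 11 results, 56 planned and 10 chosen after seeing the data, 48 changed neither the direction nor the call. Values are differences in percentage points, wide minus comparison. The number of wide peaks was 91 at 1000 bp or more and 1487 at 600 bp or more, as construction requires, and 327 without the position limit. With perfect matches only, the difference in peaks with 2 or more matches was 0.39, outside promoters 1.05, and among promoter peaks it turned to −0.229 (0 of 161 wide peaks), because few peaks hold 2 perfect sites. The central match difference turned to 6.44 at 600 bp or more, to 1.25 in 400 bp and to 14.7 in 800 bp. The tandem repeat difference passed the test at 1000 bp or more (4.18), against peaks at or above the median width (2.04), with proximal peaks (2.86), at 95% identity (1.57) and without chromosomes 1, 8 and 14 (2.68), and turned to −0.554 at 600 bp or more and −0.795 among mostly unique peaks. The repeated sequence difference turned to −1.14 at 600 bp or more. The CpG-rich difference among promoter peaks (6.84) and the neighbor difference at 1000 bp or more (2.57) no longer passed. Causes were not tested. Calls that held but moved by over 1.5 times included a central match difference of −5.92 at no mismatch and −30.6 with the matrix, 2 or more matches at 600 bp or more (8.71), neighbors at 600 bp or more (5.26) and within 5 kb (4.44), repeated sequence at 1000 bp or more (14.2), and, against peaks at or above the median width, promoters (11.2), CpG-rich sequence (12.9) and repeated sequence (5.12). The matrix was built from central windows of the remaining peaks and then scored on them. This favors the remaining peaks in the value of −30.6. The promoter difference ranged from 11.2 to 24.6 and passed under all 8 of its alternatives. No paired analysis was possible because the conditions had single libraries. Without reads or scores, the depth behind a width is unknown.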
